A study of Mus musculus with 2 samples.

Results

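The genes described here encode stretch-responsive proteins of striated muscle, 3 muscle ankyrin repeat proteins (Ankrd1, Ankrd2 and Ankrd23), the muscle LIM protein Csrp3, the Xin repeat proteins Xirp1 and Xirp2, and the secreted matricellular proteins Ctgf and Cyr61. They were chosen with their ratios on these arrays already known, so their values are given as a description. Where they are called higher or lower below, the call rests on the same values that chose them and supports nothing. Every probe that is not a control and whose gene name is one of these or an older or current alias was taken, which gave 11 probes for 8 genes of 41112 probes measured. Xirp1 is named Cmya1 on the arrays and Xirp2 is named Cmya3. All 11 probes were well above background in both genotypes on both arrays, so all 8 genes were among the 13580 genes described below.

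The arrays compared the gastrocnemius (GAS) muscle of male mice at 15 weeks of age on normal diet, wild-type (WT) against skeletal muscle-specific *Gde5* knockout (*Gde5* skKO). In the *Gde5* skKO mice a Cre recombinase driven by the human skeletal actin promoter (HSA-Cre) acts in muscle fibres on a *Gde5* allele whose exon 11 is flanked by loxP sites. *Gde5*, also named Gpcpd1, encodes an enzyme that splits glycerophosphocholine. The labels call the control wild-type and give no Cre or flox genotype for it. The study's methods name floxed littermates without Cre as the controls of its force, glucose and fasting experiments. Mice with HSA-Cre alone were examined in other assays, where the study reports no effect on muscle contraction, choline metabolites or phosphatidylcholine levels. They were not on these arrays, so in these ratios an effect of Cre cannot be told apart from the loss of *Gde5*. There were 2 arrays with 2 colours each, and each held both genotypes. On array 1 *Gde5* skKO RNA carried Cy5 and WT RNA Cy3, while array 2 had the opposite labelling. The series names 5 mice of each genotype. Pooling of their RNA is not mentioned, nor whether a single pair of RNAs served both arrays, so the spread given is that between 2 hybridizations and may be technical. The study describes array comparisons of mice injected with glucose and of fasted mice, and the labels do not say which of these the arrays hold.

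Ratios are log2 values of *Gde5* skKO over WT, from the background-subtracted and dye-corrected signals of Agilent Feature Extraction. The brightest probe of a gene stood for it, and genes were kept if that probe exceeded background clearly, by the software's own mark, in WT or *Gde5* skKO RNA on each array. A gene was called where the software's p-value was under 0.05 on both arrays with the same direction, and this p-value covers spots of a hybridization, not the spread among mice. The share of spots well above background was 53.2% for *Gde5* skKO and 45.6% for WT on array 1, and 44.6% and 47.4% on array 2. Precision is limited by the number of arrays. GAS is a bulk sample, in which fewer cells of a type and less RNA per cell cannot be told apart.

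The deleted gene had 4 probes under its older name Prei4, all of the minus strand of chromosome 2 (assembly mm8). Of these, 3 were called lower in *Gde5* skKO muscle, the one at chr2:132225539-132225598 with log2 ratios of -3.07 and -3.29. The probe at chr2:132256048-132256107 had ratios of -0.05 and -0.47 and was not called. Whether any probe lies in exon 11 was not determined.

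Muscle ankyrin repeat proteins bind the spring-like I-band part of titin, the giant protein that spans from the Z-disc to the M-band, and also enter the nucleus. Csrp3 sits at the Z-disc and in the nucleus, and Xin repeat proteins bind actin filaments and are found where muscle fibres attach or are being remodelled. These genes are known for their response to stretch, injury and denervation of muscle. Ctgf and Cyr61 are best known as targets of the transcriptional coactivators YAP and TAZ, which act through TEAD factors on DNA. Ankrd2 and Csrp3 are also known to be more abundant in slow than in fast fibres.

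RefSeq windows of 300 bases around transcription starts, from 250 bases before to 50 after, were found for 6 of the 8 genes, with 8 windows in all on the build GRCm38.p6. Those of Ankrd1, Ankrd2 and the first of 2 windows of Csrp3 are shown because these genes had the 3 highest mean ratios of the group. Capitals mark CATTCC on either strand (GGAATG where it lies on the other strand), the letters that TEAD factors bind, and CANNTG, the E-box letters bound by myogenic factors. No capitals of the 2 motifs overlap in these windows.
Ankrd1, chr19:36119795-36120094, minus strand: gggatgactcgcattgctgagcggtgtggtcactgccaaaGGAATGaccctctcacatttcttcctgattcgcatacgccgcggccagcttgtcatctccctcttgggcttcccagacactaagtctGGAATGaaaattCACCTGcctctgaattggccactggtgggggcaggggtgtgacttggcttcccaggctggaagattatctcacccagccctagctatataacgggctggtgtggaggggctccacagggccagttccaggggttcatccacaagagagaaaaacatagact
Ankrd2, chr19:42035777-42036076, plus strand: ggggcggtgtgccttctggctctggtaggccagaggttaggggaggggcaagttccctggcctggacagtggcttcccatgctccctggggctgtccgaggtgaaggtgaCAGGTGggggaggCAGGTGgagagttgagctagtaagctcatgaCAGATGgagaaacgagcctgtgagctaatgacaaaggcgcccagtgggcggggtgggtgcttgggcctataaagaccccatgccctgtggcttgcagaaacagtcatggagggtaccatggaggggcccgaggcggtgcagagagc
Csrp3, chr7:48848002-48848301, minus strand: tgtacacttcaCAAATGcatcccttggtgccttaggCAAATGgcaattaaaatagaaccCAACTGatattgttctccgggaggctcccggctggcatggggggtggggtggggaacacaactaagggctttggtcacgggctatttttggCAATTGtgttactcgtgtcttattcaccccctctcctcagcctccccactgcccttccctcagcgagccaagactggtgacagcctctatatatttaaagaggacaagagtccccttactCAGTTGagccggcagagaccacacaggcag

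The Ankrd1 window held CATTCC at 2 places, which begin at positions -210 and -123 from the start, and 1 E-box. The Ankrd2 window held 3 E-boxes and the first Csrp3 window 5, and neither held CATTCC. The second Csrp3 window held 4 E-boxes. CATTCC was also present in both windows of Ankrd23 and in that of Cyr61. The window of Xirp2 held 2 E-boxes and 1 MEF2 box. No window of these genes held a CArG box, the motif of SRF. On both strands of all 32851 windows of the table, CATTCC was present in 14.7%, CANNTG in 72.3%, the MEF2 box in 3.19% and the CArG box in 1.63%. These letters are a description of the windows and not of bound sites.

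Of the 8 genes, 4 were called higher in *Gde5* skKO muscle (Ankrd1, Ankrd2, Csrp3 and Xirp1), 1 was called lower (Ctgf) and 3 were not called (Ankrd23, Xirp2 and Cyr61). The calls of Xirp1 and Ctgf were lost at a Feature Extraction p-value under 0.01, and those of Ankrd1 and Ctgf in limma's moderated test after adjustment. The methods' t-test called only Csrp3 and Ctgf without adjustment and no gene after it. Over all 13580 genes, 215 (1.58%) were called higher and 235 (1.73%) lower. Nothing is read from these shares, because the same arrays were used to choose the genes. On array 1 the median over the 8 genes was 0.30 (log2), on array 2 it was 0.63, and the medians over all genes were 0.01 and 0.02. Whether the signals of the genotypes overlap is given for each gene below, without the share of all genes where they do not. With 2 signals for each genotype, nothing is read from it.

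**Figure D1:**
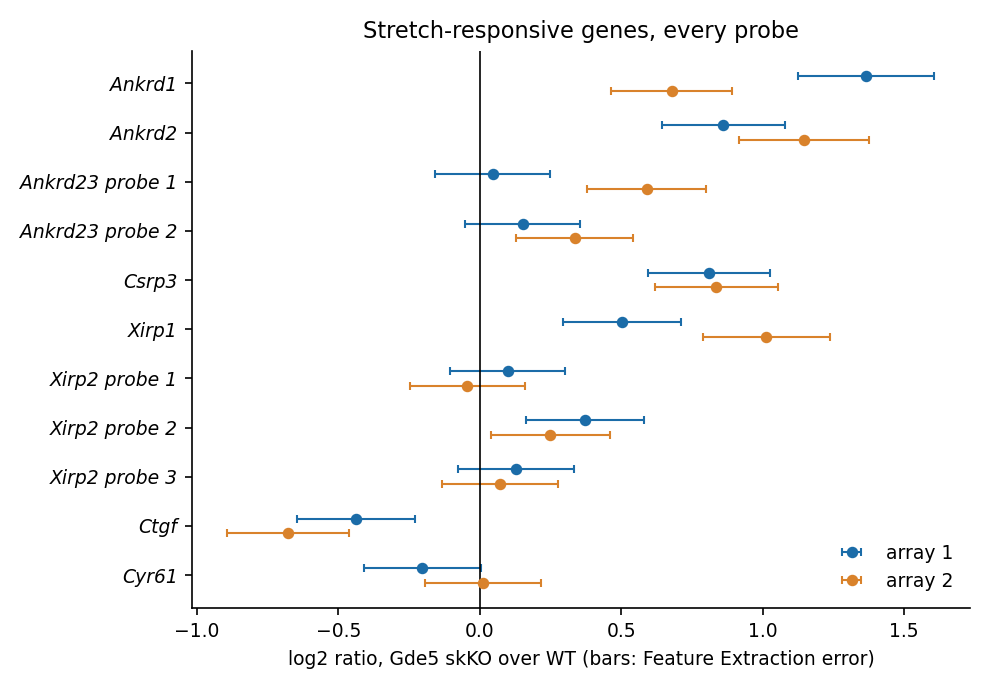
Log2 ratio of *Gde5* skKO over WT (x axis) for each of the 11 probes, with array 1 in blue and array 2 in orange. Bars are the Feature Extraction error of a single array, and the probes of Ankrd1, Ankrd2, Csrp3 and Xirp1 lie to the right of 0 on both arrays while that of Ctgf lies to the left. Both probes of Ankrd23 and the probes of Xirp2 other than its brightest, none of them called, also lie right of 0 on both arrays.

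Ankrd1, also known as CARP, is a titin-binding protein and transcriptional cofactor that is scarce in adult limb muscle and increases with stretch or injury. Its probe (chr19:36177463-36177522 of mm8, minus strand) had a processed signal of 362 in WT and 934 in *Gde5* skKO muscle on array 1. On array 2 it had 504 in WT and 806 in *Gde5* skKO muscle. Both *Gde5* skKO signals were above both WT signals. The log2 ratio was 1.37 on array 1 and 0.68 on array 2, with a mean of 1.02 ± 0.49 (SD, n = 2 arrays), or 2.03-fold. It ranked 56 of 13580 genes by mean ratio, the highest place in the group with Feature Extraction ratios, and also had the widest gap between arrays, 0.69 where the combined error of the software was 0.32. With normexp background correction and loess normalization in limma, the mean log2 ratio was 0.71, below the 1.02 of Ankrd2 and the 0.78 of Csrp3.

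Ankrd2, the family member best known from slow and stretched muscle, was measured by a probe at chr19:42097387-42097446 (plus strand). Its signal was 11623 in WT and 21123 in *Gde5* skKO muscle on array 1, and 13778 and 30497 on array 2. The genotypes did not overlap. The log2 ratio was 0.86 on array 1 and 1.15 on array 2, with a mean of 1.00 ± 0.20 (SD, n = 2 arrays), or 2.01-fold. The gap between arrays, 0.28, was within the combined error of 0.32.

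Ankrd23, or DARP, is the third titin-binding member of the family. The brighter of its 2 probes (chr1:36475239-36475298, minus strand) had 50530 in WT and 52172 in *Gde5* skKO muscle on array 1, and 44499 and 66977 on array 2. Both *Gde5* skKO signals were above both WT signals, that of array 1 only slightly. The log2 ratio was 0.05 on array 1 and 0.59 on array 2, with a mean of 0.32 ± 0.38 (SD, n = 2 arrays). The other probe (chr1:36474937-36474996) had ratios of 0.15 and 0.34. Ankrd23 was past the threshold on array 2 alone and was therefore not called, and its gap between arrays of 0.54 exceeded the combined error of 0.29.

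Csrp3, the muscle LIM protein, links Z-disc proteins and acts as a cofactor of myogenic transcription. Its probe has coordinates on chr7:48698714-48700628 (minus strand), a span of 1915 bases where the other probes span 60. The signal was 3800 in WT and 6665 in *Gde5* skKO muscle on array 1, and 3605 and 6436 on array 2. Both *Gde5* skKO signals lay above both WT signals, and the arrays gave nearly the same values. The log2 ratios were 0.81 and 0.84, with a mean of 0.82 ± 0.02 (SD, n = 2 arrays), or 1.77-fold.

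Xirp1, or Xin, is an actin-binding adaptor known from injured and regenerating fibres. Its probe (chr9:119862804-119862863, minus strand) had 1494 in WT and 2118 in *Gde5* skKO muscle on array 1, and 1404 and 2835 on array 2. The genotypes did not overlap, and the arrays differed mainly in the *Gde5* skKO channel. The log2 ratio was 0.50 on array 1 and 1.01 on array 2, with a mean of 0.76 ± 0.36 (SD, n = 2 arrays), or 1.69-fold. The gap of 0.51 exceeded the combined error of 0.31.

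Xirp2, also named myomaxin, is the larger Xin repeat protein and a known target of MEF2 factors. Its brightest probe (chr2:67327226-67327285, plus strand) had 29615 in WT and 31710 in *Gde5* skKO muscle on array 1, and 30242 and 29346 on array 2. The genotypes overlapped and the log2 ratios, 0.10 and -0.04, had opposite signs, with a mean of 0.03 ± 0.10 (SD, n = 2 arrays). The probe at chr2:67326743-67326802 had ratios of 0.13 and 0.07, and the dimmer probe at chr2:67309191-67309250 had 0.37 and 0.25. No probe of Xirp2 was called, so the Xin repeat genes were not called alike. Whether Xirp1 differs from Xirp2 was not tested.

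**Figure D2:**
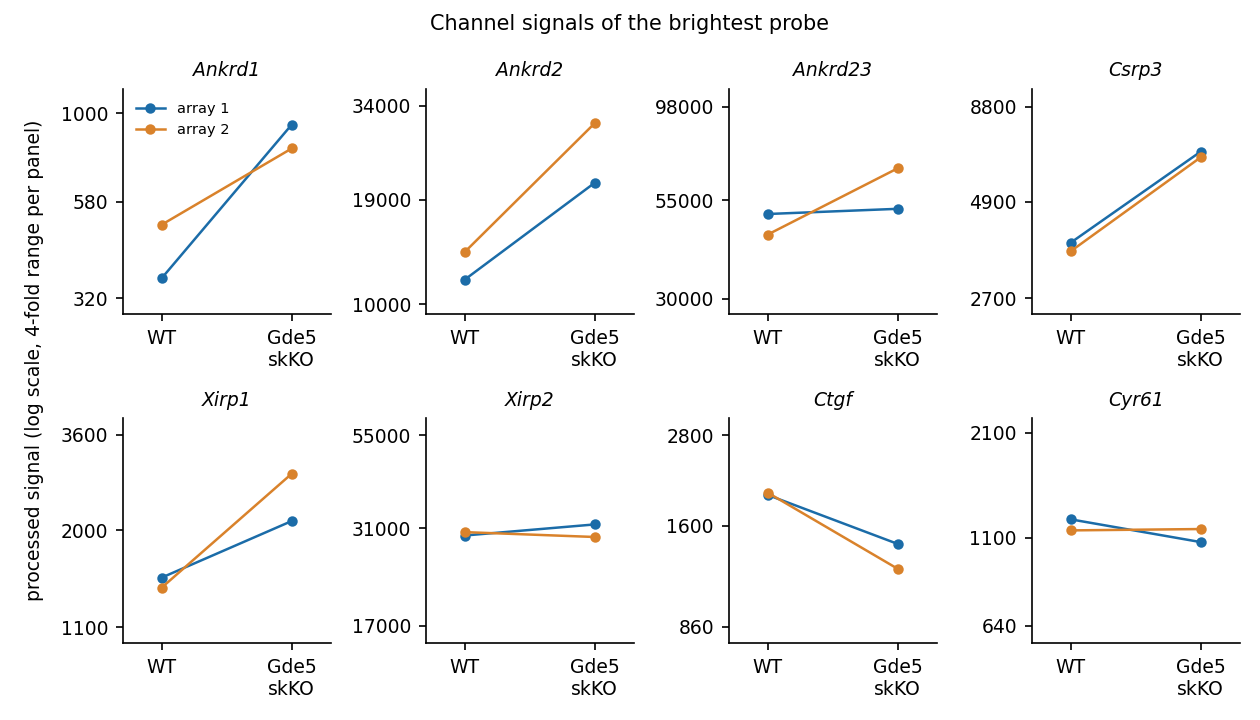
Processed signal (y axis, log scale, 4-fold range in every panel) of the brightest probe of each gene in WT and *Gde5* skKO muscle, with a line for each array. The lines of Ankrd1, Ankrd2, Csrp3 and Xirp1 go up from WT on both arrays. So do those of Ankrd23, which was not called, though only slightly on array 1. The lines of Ctgf go down, and for Xirp2 and Cyr61 the lines of the 2 arrays go in opposite directions.

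Ctgf, or Ccn2, is a secreted profibrotic protein. Its probe (chr10:24287891-24287950, plus strand) had 1936 in WT and 1431 in *Gde5* skKO muscle on array 1, and 1964 and 1228 on array 2. Both *Gde5* skKO signals lay below both WT signals. The log2 ratio was -0.44 on array 1 and -0.68 on array 2, with a mean of -0.56 ± 0.17 (SD, n = 2 arrays), or 0.680-fold. With limma ratios the mean was -0.42. Ctgf was the member called in the direction opposite to the other 4.

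Cyr61, or Ccn1, is a secreted protein of the same CCN family. Its probe (chr3:145584609-145584668, minus strand) had 1233 in WT and 1071 in *Gde5* skKO muscle on array 1, and 1152 and 1161 on array 2. The genotypes overlapped. The log2 ratios of -0.20 and 0.01 had opposite signs, and their mean was -0.10 ± 0.15 (SD, n = 2 arrays). Cyr61 was not called, and the difference between Ctgf and Cyr61 was not tested.

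**Figure D3:**
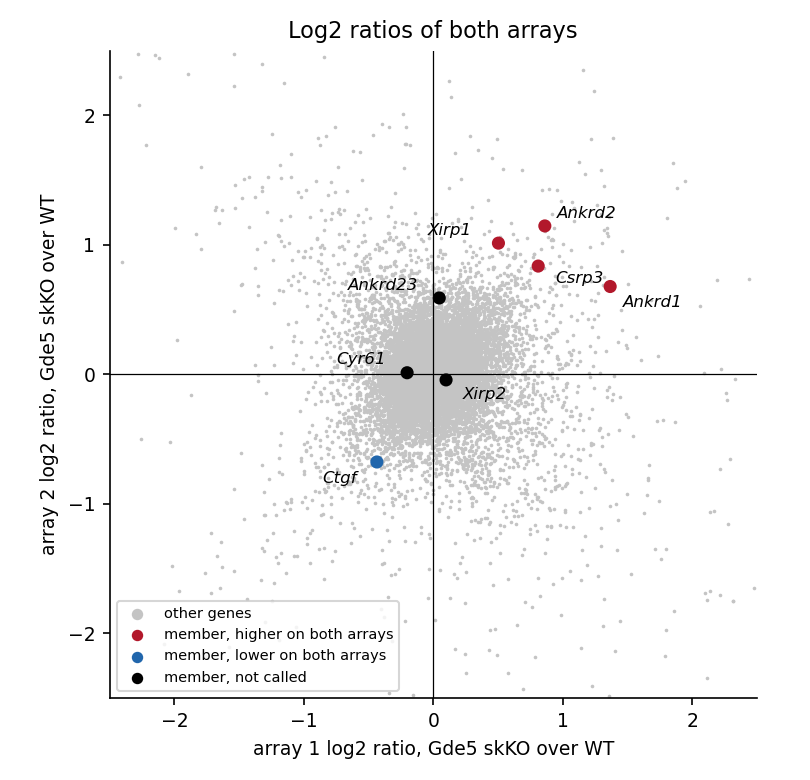
Log2 ratio of *Gde5* skKO over WT on array 1 (x axis) against array 2 (y axis) for 13539 genes, with 41 genes beyond 2.5 on either axis not drawn. Ankrd1, Ankrd2, Csrp3 and Xirp1 (red) lie in the upper right, Ctgf (blue) in the lower left, and Ankrd23, Xirp2 and Cyr61 (black) among the mass of genes.

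The genes whose pair of ratios was nearest to that of Ankrd1, outside the group and its lists, were Cpne2, Bdnf and Sp3os. Likeness was the Euclidean distance over the log2 ratios of the 2 arrays, among 12182 genes well above background in both channels. Cpne2, which encodes a calcium-dependent membrane-binding copine, had ratios of 1.27 and 0.63 at a distance of 0.11. Bdnf, a neurotrophin, had 1.22 and 0.72 at a distance of 0.15, but its limma mean was 0.22. Sp3os, named as an opposite-strand transcript of Sp3, had 1.25 and 0.57 at a distance of 0.16, with a limma mean of 0.30. With 2 values for each gene such nearness is a description only.

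Genes around the group were gathered in lists written with earlier results of these arrays known, so their counts are no independent evidence. The shares called over all 13580 genes, 1.58% higher and 1.73% lower, stand beside the counts of every list. Of the titin, Z-disc and other partners of the ankyrin repeat proteins and Csrp3, 10 of 11 were well above background and none was called. Trim55 was not well above background. Their median log2 ratio was -0.06, and -0.01 with limma ratios. Titin itself (Ttn) had ratios of 0.06 and -0.14 with its brightest probe, and its 9 probes had means from -0.05 to 0.59. The largest ratio was that of Actn2, the Z-disc crosslinker alpha-actinin-2, at 0.37 and 0.72.

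Of the partners of the Xin proteins, 7 of 9 were measured. Their mean ratios had a median of 0.21, while the median was -0.01 on array 1 and 0.09 on array 2. Flnc, the muscle filamin that holds Z-discs to actin, was called higher with ratios of 0.58 and 0.57. Its signal was 7983 in WT and 11956 in *Gde5* skKO muscle on array 1, and 8746 and 13001 on array 2. Vasp, which promotes actin filament growth at adhesions, was called lower with ratios of -0.65 and -0.44 and a limma mean of -0.36. Actn2 stands in this list too. The other probes of Flnc and Vasp had the same direction as the brightest.

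The small heat shock proteins and their partner Bag3, which protect titin and filamin in stretched muscle, were all 8 measured. Of them 3 were called higher and none lower, with a median of 0.39. Hspb6 had 4048 in WT and 9366 in *Gde5* skKO muscle on array 1, and 5233 and 10324 on array 2, with log2 ratios of 1.21 and 0.98. Hspb1 had ratios of 0.75 and 0.79, but its other probe was at a mean of -0.03. Hspb7 had ratios of 0.66 and 0.80, and both its probes were called. Cryab, at a mean of 0.40, and Bag3, at 0.38, were not called, and the other probe of Cryab was at -0.35. Hspb8 was at -0.23, Hspb2 at 0.03 and Hspb3 at -0.01, so that 5 of the 8 were higher and 1 lower on both arrays. Among all 13580 genes, 215 were called higher, 3968 were higher on both arrays and 3429 lower on both.

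Of the YAP, TAZ and TEAD factors, 10 of 12 were measured, with a median of 0.02 that was -0.01 with limma ratios. Tead4, a TEAD factor known from myoblasts, was called higher with ratios of 2.19 and 0.73 from dim signals, 21.9 in WT and 100.2 in *Gde5* skKO muscle on array 1 and 53.8 and 89.0 on array 2. With limma ratios its mean was 0.27. Yap1 was at -0.38, with a limma mean of -0.10, and Wwtr1, which encodes TAZ, at -0.04, and neither was called.

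Of 19 further genes of a YAP and TAZ target signature, 16 were measured. None was called higher and 1 lower. Their median was -0.15 over both arrays, -0.01 on array 1, -0.18 on array 2 and -0.03 with limma ratios. The lower gene was Crim1, a transmembrane protein that binds growth factors, at -0.59 and -0.55. Of the factors and targets of SRF and its MRTF cofactors, which respond to actin tension, all 16 were measured and 1 was called. This was Fhl1, a LIM protein of muscle, higher with ratios of 0.78 and 0.42, and the median of the list was 0.08, with 0.19 on array 1, 0.07 on array 2 and 0.03 with limma ratios. Relatives of the group by protein family (Csrp1, Csrp2, Wisp1 and Wisp2) were not called, and the largest mean ratio was -0.18 for Wisp1, from 0.22 on array 1 and -0.57 on array 2, with a limma mean of 0.04. Nov and Wisp3 had no probe of that name.

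**Figure D4:**
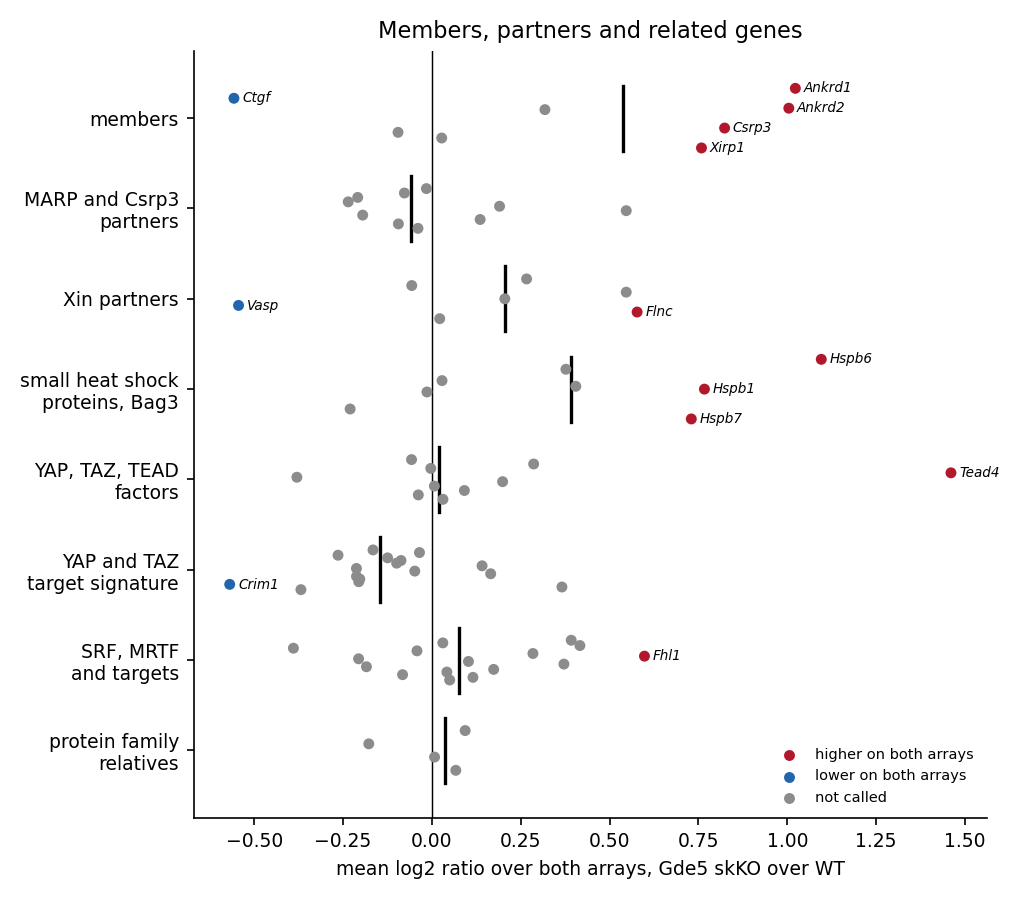
Mean log2 ratio over both arrays (x axis) of the 8 genes and of the genes of each list, a point for each gene with called genes in red (higher) or blue (lower) and a bar at the median. The small heat shock proteins have the highest median of the lists, at 0.39, which was 0.39 on each array and 0.37 with limma ratios.

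Some slow fibre markers were higher beside these genes. All 10 slow fibre genes were measured, 9 were higher on both arrays, 3 were called higher and none lower, with a median of 0.38. Over all 13580 genes, 215 (1.58%) were called higher, while 3968 were higher and 3429 lower on both arrays. Myl2, the slow regulatory light chain, was at a mean of 0.84, slow troponin I (Tnni1) at 0.67 and the calcium store protein Casq2 at 0.67. The brightest, Myl3, was at 0.40. The slow myosin heavy chain Myh7 was at 0.33 and not called. In the study's qPCR, fibre type mRNA was comparable between the genotypes. Its fibre type primers are for the myosin heavy chains Myh7, Myh2, Myh1 and Myh4, and not for Myl2, Tnni1 or Casq2. The summed signal of the list in *Gde5* skKO muscle over WT was 1.42 on array 1 and 1.35 on array 2. None of the 10 fast fibre genes was called, with a median of -0.12 (-0.06 on array 1, -0.17 on array 2 and -0.05 with limma ratios), 3 genes higher and 6 lower on both arrays, a summed signal ratio of 0.948 and 0.946, and -0.16 for the brightest, Tnni2. The part of fibre type in the ratios of Ankrd2 and Csrp3 was not tested.

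Of 10 genes of denervated or regenerating muscle, 9 were measured and 3 were called higher, beside 1.58% of all 13580 genes. The median of the list was 0.29, and 0.15 with limma ratios. Myh3, the embryonic myosin heavy chain, had ratios of 1.95 and 1.49, a mean of 1.72, and a limma mean of 0.86. Chrna1, an acetylcholine receptor subunit, was at 0.83. Ncam1, an adhesion molecule of denervated fibres, was at 0.53, with other probes down to -0.27. The brightest gene, the neonatal myosin Myh8, was at -0.16, with ratios of 0.02 and -0.34 and probe means from -0.70 to 0.61, and the myogenic factors Myog and Myod1 were at 0.10 and 0.20 and not called. The receptor subunit Chrng was not well above background. The summed signal ratio of the list was 1.07 on array 1 and 0.860 on array 2. The part of denervated or regenerating fibres in the ratios of Ankrd1 and Xirp1 was not tested.

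General skeletal muscle genes had a median of 0.03 with none of 8 called, and the brightest, Mb, was at 0.36. None of the 13 fibroblast and tendon genes was called, with a median of -0.15 over both arrays, -0.01 on array 1, -0.03 on array 2 and -0.05 with limma ratios, a summed signal ratio of 0.901 and 0.971, and -0.27 for the brightest, Dcn, whose other probe was at 0.19. The tendon factor Scx, with ratios of 0.36 and 0.59, and the tendon matrix protein Thbs4, with 0.25 and 0.33, were higher on both arrays. Fmod, with -0.40 and -0.42, and Comp, with -0.37 and -0.43, were lower on both. Of the 13 genes, 4 were higher and 5 lower on both arrays, beside 3968 and 3429 of all 13580 genes. Fibroblasts and tendon cells are those in which Ctgf is often studied, and their part in its ratio was not tested.

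Of 8 endothelial genes only Kdr was called, higher at 0.42, while its other probe was at -0.01, the median was -0.04 and the brightest, Flt1, was at -0.12. The 7 smooth muscle and pericyte genes had a median of 0.03 (0.13 on array 2) with none called, and the brightest, Acta2, was at 0.39, with probe means down to -0.19. Of the macrophage and leukocyte genes 5 of 7 were measured and none was called, with a median of -0.11 (-0.13 on array 1, -0.23 on array 2 and -0.07 with limma ratios) and the brightest, Lyz2, at -0.24. Of the Schwann cell genes 4 of 5 were measured and none was called, with a median of -0.04 and the brightest, S100b, at -0.33. The medians of the muscle, endothelial and Schwann cell lists had opposite signs on the arrays, 0.11 and -0.01, -0.08 and 0.07, and 0.02 and -0.27 on arrays 1 and 2.

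Of 6 adipocyte genes, 5 were measured and 4 of these were called lower, beside 1.73% of all 13580 genes. The median was -0.83, and -0.34 with limma ratios. Among the lower genes were Adipoq at -0.97 on array 1 and -1.03 on array 2, Cfd at a mean of -0.90 and Retn at a mean of -0.83, the last with a limma mean of -0.34. The brightest, Fabp4, was at 0.05 and held most of the summed signal, whose ratio was 0.998 on array 1 and 0.916 on array 2. The part of fat between the fibres in the ratio of Ctgf was not tested.

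**Figure D5:**
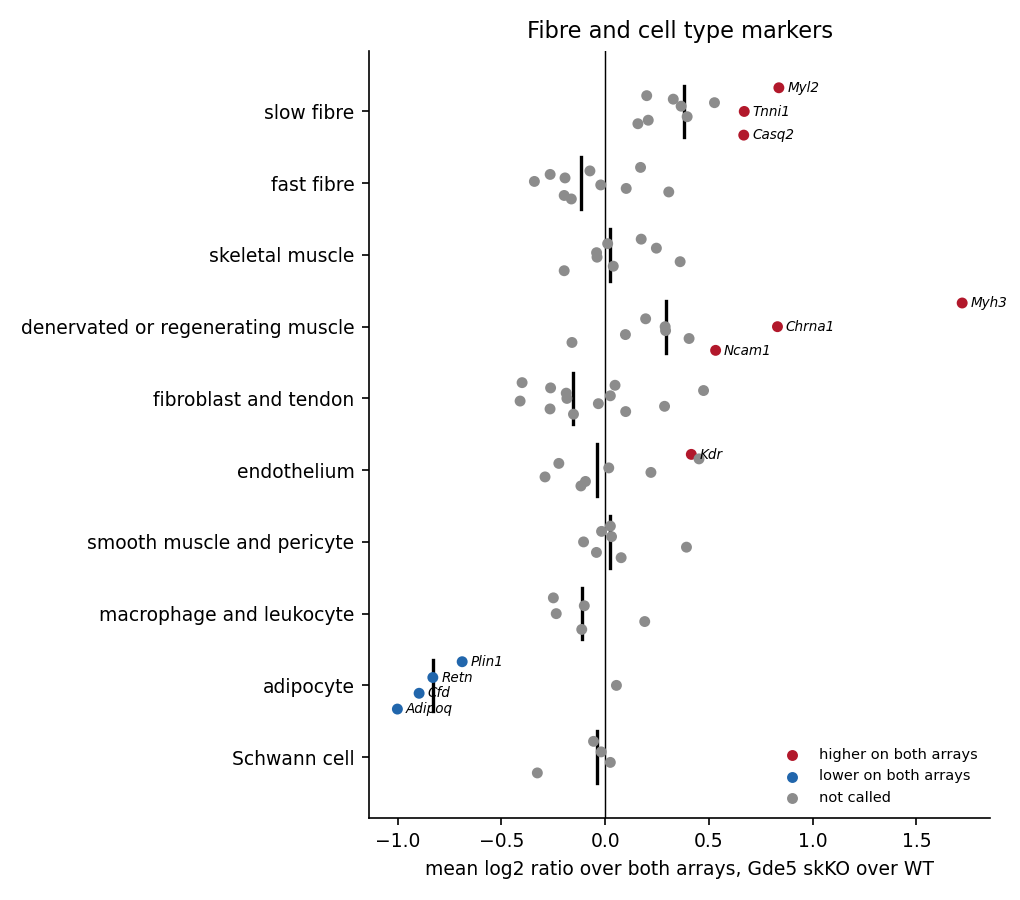
Mean log2 ratio over both arrays (x axis) of marker genes of fibre types and other cell types, a point for each gene with called genes in red (higher) or blue (lower) and a bar at the median. The slow fibre markers lie right of 0 with a median of 0.38, and 4 of 5 adipocyte markers lie left of 0.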

How the data were processed

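Gene expression of GAS muscle was measured on 2 dye-swapped Agilent whole mouse genome arrays, which lie on 1 slide and in 1 scan. The authors processed the scans with Feature Extraction 9.5, and the deposited files hold the log10 ratio (Cy5 to Cy3) of every spot, a p-value from the software's error model and the intensity of each channel and its local background. The log10 ratio stands again in the deposited series table, with a median of 0 in each column, the swapped array not turned and no difference from the scanner values above 0.00453.

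All ratios were put on the log2 scale with *Gde5* skKO as the numerator. Spots were left out where marked as outliers (164 on array 1, 200 on array 2, of 43379) or where the local background exceeded 2 times their own signal (7 and 0). Several spots of a probe were averaged, with the median of their p-values. Probes were named through RefSeq, 24323 by accession, 6303 by symbol and 2413 by synonym of 41112, and the others kept the array's name. Coordinates of probes are those of the array annotation (mm8), without exon or UTR, and promoter windows are on GRCm38.p6.

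The genes and lists were chosen with earlier results of these data known. Genes named are the 8 members, Gpcpd1, in each partner list up to 3 called genes of largest absolute mean ratio (where none is called, the gene of largest absolute mean ratio), in each marker list its brightest gene and up to 3 called genes, and the 3 genes nearest to Ankrd1. Ttn, Trim55, Cryab, Bag3, Hspb2, Hspb3, Hspb8, Yap1, Wwtr1, Csrp1, Csrp2, Wisp2, Myog, Myod1, Chrng, Scx and Thbs4 were named besides, after their values were seen. So were Myh7, Fmod and Comp. Alternatives used limma 3.58.1 in R 4.3.3 (normexp with an offset of 50, loess, moderated test) and an unpaired Student's t-test. Other filters, thresholds and probes, and each array alone, were also used. Other steps were run in Python 3.11.15 with scipy 1.17.1, pandas 2.3.3, numpy 2.4.6 and matplotlib 3.10.9, and were tested on simulated data. Identity between the proteins was not computed.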

Additional observations from a re-analysis of the deposited data

How the results depend on the processing

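Of the 8 genes, 6 kept the direction of their ratio under each of the 8 alternatives. Xirp2 and Cyr61, neither of them called, changed sign on array 2 alone, to -0.04 and 0.01, and kept it otherwise. Ratios with 1 array left out cannot move by more than the SD of the 2 arrays, and the filters on dim probes left these bright probes as they were, so neither speaks for stability. Csrp3 was at 0.78 with limma ratios and also without background correction, more than its SD from the reported mean, and Xirp2 was at 0.15 as a mean over all its probes. The median of the 8 genes lay between 0.30 and 0.63 with 1 array alone. The number of genes called moved with the rule. A single array gave 926 to 971 higher genes and 722 to 911 lower ones, and Ankrd23 joined the 4 higher members on array 2 alone, a rise set by asking for 1 array in place of both. At a Feature Extraction p-value under 0.01, 107 genes were higher and 127 lower, with Ankrd1, Ankrd2 and Csrp3 kept and Xirp1 and Ctgf lost. With that p-value under 0.05 as reported and a mean log2 ratio at least 1 in size, 38 genes were higher and 62 lower, and 2 members (Ankrd1 and Ankrd2) remained. Limma's moderated test gave 576 higher and 581 lower genes at an unadjusted p under 0.05, and 39 and 70 after Benjamini-Hochberg adjustment, where Ankrd1 and Ctgf were no longer called. The unpaired t-test on the channel values gave 616 higher and 571 lower genes at an unadjusted p under 0.05, with 1 member higher (Csrp3) and Ctgf lower. It gave 0 genes and 0 members in either direction after Benjamini-Hochberg adjustment. Limma ratios, ratios without background correction and the series table left each count within 1.5 times that reported. These settings changed only the ratio and kept the Feature Extraction p-values, which largely fixed the counts. They therefore do not speak for the stability of the calls. All probes and other filters on dim probes also left each count within 1.5 times that reported. Slide as a block was not run because both arrays lie on 1 slide. Each ratio already pairs both genotypes within an array, and no further replicate block was fitted. The calls of members rest on the values that chose them under every rule.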
